A study of Drosophila melanogaster with 10 samples.

Results

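The 10 genes described here are short secreted peptides of the fly immune response and a partner of theirs: the short-form Bomanins BomS1, BomS2, BomS3 and BomS5, the bicipital Bomanins BomBc1, BomBc2 and BomBc3, the Daisho peptides IM4 and IM14, and CG18067. They were taken by name from a table of 11621 genes, and all 10 were present and passed the filter on low values. RefSeq gives IM4 as Dso1, IM14 as Dso2 and CG18067 as Bbd, so CG18067 is neither a Bomanin nor a Daisho peptide. RNA was sequenced from brains of male w1118 flies (Drosophila melanogaster, a white-eyed laboratory strain labelled wild type) aged 4 to 7 days. In 5 libraries the flies had eaten a high-protein, low-carbohydrate diet (HPLC, 1 part protein to 2 parts carbohydrate) and in 5 a low-protein, high-carbohydrate diet (LPHC, 0 parts protein to 1 part carbohydrate), both at 360 g per L. The series design says that sucrose taste responses were higher on HPLC and lower on LPHC; neither diet is an untreated control. Nothing in the labels tells whether replicates are separate fly cultures or how many brains were pooled, so a p-value here reflects differences among sequenced libraries, which may be technical.

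Bomanins are secreted into the haemolymph when the Toll pathway is switched on, and flies without the main Bomanin cluster die of infections that Toll normally holds in check. Microbial cell walls start a cascade of proteases that cuts Spätzle, the ligand of the receptor Toll; signalling through Myd88 and Pelle then removes the inhibitor Cactus from the NF-kappaB factors Dif and Dorsal, which turn these genes on, mainly in the fat body. A short-form Bomanin is little more than the Bomanin motif, a tailed one carries a long extension after it, and a bicipital one carries a pair of motifs. Bombardier, the product of CG18067, is needed for short-form Bomanins to accumulate in haemolymph, and the Daisho peptides protect against some filamentous fungi.

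Recovered reads per library ran from 21217792 to 33863333 on HPLC and from 19834344 to 38402635 on LPHC. Each member had at least 60 reads in every library. Neuron markers took 1.05% to 1.16% of reads on HPLC and 1.22% to 1.44% on LPHC, and none of the 18 was at 0 in any library, nor were the pan-neuronal elav or the glial repo. Photoreceptor markers took 8.65% to 10.7% of reads on HPLC and 11.6% to 12.8% on LPHC, so eye tissue was present beside brain. Among the HPLC libraries, replicate 3 stood apart, and not for these peptides alone. It was above its diet's mean for 10 of 10 members and the highest HPLC library for 32.7% of all genes tested. Each family gene is therefore given with and without it.

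The 10 members together took 0.108% ± 0.0149 of reads on HPLC and 0.0665% ± 0.00645 on LPHC (mean ± SD, n = 5 each). CG18067 supplied 53.7% to 59.8% of the members' reads on HPLC and 65.4% to 69.2% on LPHC. Without it the other 9 members took 0.0471% ± 0.00890 on HPLC and 0.0216% ± 0.00140 on LPHC. In whole brains a higher share of reads from more cells of a kind and from more RNA per cell cannot be told apart.

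Of the 10 members, 9 rose on HPLC and none fell (limma-trend on log2 of the normalised count + 1, Benjamini-Hochberg adjusted p under 0.05 over 9896 genes). Over all genes tested, 22.1% were called higher and 18.9% lower, 40.9% in all. In 7 of the 10 members all HPLC values lay above all LPHC values, against 17.4% of all genes; the opposite order, seen in no member, held for 11.7% of all genes. For 4 members the called rise was a log2 fold change of 1 or more, against 6.41% of all genes. The members' median log2 fold change was 0.65, with a range of 0.24 to 2.08, and the median of all genes was −0.03. These log2 fold changes are HPLC minus LPHC and are given with standard errors (SE). Without HPLC replicate 3, 7 members were called. How many genes went each way depended on the scaling, with 2185 higher and 1866 lower as deposited. These became 1680 and 3831 on upper quartiles, 1682 and 3902 on quantiles, and 2697 and 226 on the geometric mean of the neuron markers. The median of all genes was −0.14, −0.14 and 0.12 on these scalings.

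**Figure D1:**
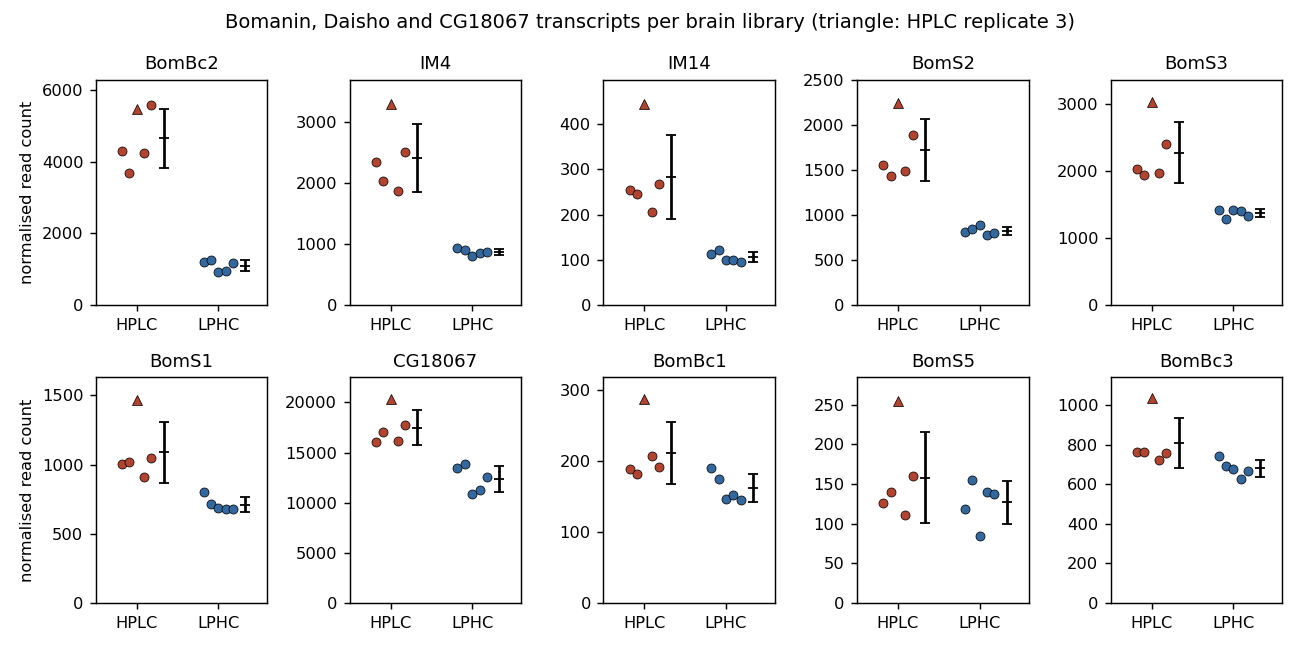
Normalised read count (vertical axes, linear, from 0) of each of the 10 members in the 5 HPLC and 5 LPHC libraries. Each point is a library, bars are mean ± SD, and the triangle is HPLC replicate 3; the upper row and BomS1 and CG18067 show no overlap between diets, while BomBc1, BomS5 and BomBc3 do.

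Bicipital Bomanins differed widely among themselves. BomBc2 rose most of all members, with normalised read counts of 4285, 3696, 5455, 4244 and 5584 in HPLC replicates 1 to 5 and 1213, 1246, 918, 947 and 1167 in LPHC replicates 1 to 5. The diets were far apart in every library, 4653 ± 826 on HPLC and 1098 ± 154 on LPHC (SD, n = 5 each), a ratio of means of 4.24 and a log2 fold change of 2.08 ± 0.12 (limma adjusted p = 8.98e-09). It is also the one member that was highest in HPLC replicate 5 and not in replicate 3, and its ratio without replicate 3 was 4.05. BomBc1 had 189, 182, 287, 207 and 192 normalised reads on HPLC and 189.8, 174, 147, 152 and 146 on LPHC. Here the diets overlapped: 3 HPLC libraries lay above the highest LPHC library. Its ratio was 1.31 (log2 fold change 0.37 ± 0.12, limma adjusted p = 0.0242) and 1.19 without HPLC replicate 3 (adjusted p = 0.0517). BomBc3, which lies on chromosome arm 3R and outside the main cluster, ranged from 724 to 1036 on HPLC and from 626 to 743 on LPHC. With a ratio of 1.19 (log2 fold change 0.24 ± 0.08, limma adjusted p = 0.0350) it rose least of the called members, and without HPLC replicate 3 the ratio was 1.10 and the adjusted p 0.0557. Under upper-quartile scaling, which lowered the median of all genes, neither BomBc1 (adjusted p = 0.0867) nor BomBc3 (0.233) passed; under quantile normalization their adjusted p were 0.141 and 0.205.

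Of the short-form Bomanins, BomS2, BomS3 and BomS1 rose and BomS5 did not pass the test. BomS2 had 1553, 1436, 2242, 1487 and 1890.2 normalised reads on HPLC and 812, 848, 891, 774 and 800.5 on LPHC. Every HPLC library was above every LPHC library, at 1722 ± 341 on HPLC and 825 ± 45.2 on LPHC (SD, n = 5 each), which is 1.04 ± 0.10 as a log2 fold change (limma adjusted p = 1.18e-06). BomS3 had 2272 ± 458 on HPLC and 1369.9 ± 62.3 on LPHC (SD, n = 5 each), a ratio of 1.66 (0.71 ± 0.10 on the log2 scale, limma adjusted p = 5.85e-05). BomS1 ranged from 908 to 1469 on HPLC and from 677 to 803 on LPHC, a ratio of 1.53 (0.60 ± 0.10, limma adjusted p = 3.17e-04). These peptides are the abundant short forms found in haemolymph after infection, and none of their ranges overlapped between diets. Without HPLC replicate 3 the ratios were 1.93 for BomS2, 1.52 for BomS3 and 1.40 for BomS1. BomS5 had 125, 139, 255, 111 and 160.1 normalised reads on HPLC and 118, 155, 83.7, 139 and 137 on LPHC. Only replicates 3 and 5 of HPLC exceeded the highest LPHC library. Its means were 158 ± 56.9 on HPLC and 127 ± 27.4 on LPHC (SD, n = 5 each), with a log2 fold change of 0.28 ± 0.21 (limma adjusted p = 0.307), and its ratio of 1.25 was 1.06 without HPLC replicate 3.

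Both Daisho peptides rose. IM4 had 2356, 2038, 3302, 1870.4 and 2523 normalised reads on HPLC and 938, 912, 804, 849 and 876 on LPHC. The lowest HPLC library was well above the highest LPHC library, at 2418 ± 557 on HPLC and 876 ± 52.5 on LPHC (SD, n = 5 each), a ratio of 2.76 (log2 fold change 1.44 ± 0.12, limma adjusted p = 4.61e-07). IM14 had 255, 247, 444, 206 and 269 on HPLC and 113, 123, 100.5, 99.7 and 96.1 on LPHC. Its diets did not overlap either, with a ratio of 2.67 (1.36 ± 0.16, limma adjusted p = 5.51e-06). Without HPLC replicate 3 the ratios were 2.51 for IM4 and 2.29 for IM14. The log2 ratio of IM4 to IM14 differed between diets by 0.08 (exact permutation, two-sided, p = 0.333). The 2 genes are neighbours in the annotation of arm 2R.

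CG18067, which encodes Bombardier, had the highest level of the members and a moderate rise. It had 16076, 17065, 20347, 16140.4 and 17724 normalised reads on HPLC and 13446, 13815, 10816, 11303 and 12515 on LPHC. All HPLC libraries lay above all LPHC libraries, 17471 ± 1747 on HPLC and 12379 ± 1306 on LPHC (SD, n = 5 each), a ratio of 1.41 (log2 fold change 0.50 ± 0.08, limma adjusted p = 1.20e-04) that was 1.35 without HPLC replicate 3. For the other 9 members the coefficient of variation was larger on HPLC than on LPHC, and for CG18067 it was not. Without HPLC replicate 3 it stayed larger for BomS2, BomS3, BomBc2, IM4 and IM14. For BomS1, BomS5, BomBc1 and BomBc3 it was then smaller. These 4 had 994 ± 60.7, 134 ± 20.9, 192 ± 10.4 and 752 ± 19.6 on HPLC without that library (mean ± SD). On LPHC they had 711 ± 53.5, 127 ± 27.4, 162 ± 19.5 and 682 ± 41.9. How often the coefficient of variation was larger on HPLC over all genes was not counted, so this is not shown to be particular to the members.

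Levels were put in order per kilobase of annotated exon, from Ensembl's BDGP6.54 gene models, which may not be those the reads were counted on. On HPLC the order was CG18067 (11419 ± 1142 normalised reads per kilobase), BomBc2 (6544 ± 1162), BomS2 (4691 ± 928), IM4 (3152 ± 726), BomS1 (3016 ± 606), BomS3 (2955 ± 595), IM14 (1273 ± 414), BomS5 (725 ± 261), BomBc3 (622 ± 98.3) and BomBc1 (452 ± 92.8; SD, n = 5). In that order, neighbours overlapped in range except CG18067 with BomBc2 and BomS3 with IM14. On LPHC the order was CG18067 (8091 ± 853), BomS2 (2248 ± 123), BomS1 (1969 ± 148), BomS3 (1781 ± 81.0), BomBc2 (1545 ± 217), IM4 (1142 ± 68.5), BomS5 (582 ± 126), BomBc3 (524 ± 32.2), IM14 (477 ± 49.6) and BomBc1 (345 ± 41.8; SD, n = 5). Overlapping neighbours there were BomS2 with BomS1, BomS3 with BomBc2, BomS5 with BomBc3, and BomBc3 with IM14. BomBc2 thus stood below the 3 abundant short forms on LPHC and above them on HPLC.

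To ask whether members differed in their response to diet, the log2 ratio of each of the 45 pairs was compared between diets by a two-sided exact permutation test, adjusted over the pairs. This test was added after the values were seen. In 33 pairs the ratio differed past 0.05, and the smallest p the design allows, 0.00794, came to 0.0123 after adjustment. BomBc2 differed from each of the other 9 members, by 0.64 on the log2 scale against IM4 and by 1.84 against BomBc3. IM4 also differed from each of the 3 abundant short forms, by 0.40 against BomS2, 0.73 against BomS3 and 0.84 against BomS1 (exact permutation adjusted p = 0.0123 for each). BomS2 differed from BomS3 by 0.33 and from BomS1 by 0.44 (adjusted p = 0.0123), while BomS3 and BomS1 differed by 0.11 (exact permutation adjusted p = 0.156). CG18067 did not pass against BomS1 (0.10, exact permutation adjusted p = 0.305) or BomS3 (0.21, 0.0992). BomS5 did not pass against BomBc1 (0.09, adjusted p = 0.649), BomBc3 (0.05, 0.817), CG18067 (0.21, 0.349), BomS1 (0.31, 0.150) or BomS3 (0.43, 0.0992), by the same exact permutation test.

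Another 5 Bomanins were in the table but not among the 10 chosen genes, and each of them was called higher on HPLC. BomS6, a short form, had 869, 609.7, 1145, 645 and 922 normalised reads on HPLC and 142, 153, 189.8, 178 and 164 on LPHC, a log2 fold change of 2.30 ± 0.15 (limma adjusted p = 1.81e-08). The tailed BomT2 had 582 ± 127 on HPLC and 128 ± 17.2 on LPHC (SD, n = 5 each; 2.16 ± 0.13, limma adjusted p = 2.18e-09). BomS4 followed with 215 ± 44.3 on HPLC and 70.8 ± 7.96 on LPHC (1.57 ± 0.14, limma adjusted p = 5.22e-08). The tailed BomT1, at 29.6 to 85.2 on HPLC and 20.3 to 35.4 on LPHC, rose by 0.82 ± 0.26 (limma adjusted p = 0.0179). Without HPLC replicate 3 its log2 fold change was 0.58 (limma adjusted p = 0.0411), while that of BomS6 was 2.18, of BomT2 2.06 and of BomS4 1.47. BomT3, next to BomBc3 on arm 3R, rose by 0.35 ± 0.13 (limma adjusted p = 0.0485), and without HPLC replicate 3 its log2 fold change was 0.23 (limma adjusted p = 0.0602). With them, 14 of the 15 family genes were called higher and none lower.

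In the annotation, 10 Bomanins of the table lie side by side on arm 2R with no other annotated gene between them, and the size of the rise varied along this run. In order they were BomT1, BomBc1, BomS1, BomS4, BomBc2, BomS2, BomS3, BomT2, BomS5 and BomS6. Of the 9 pairs of next neighbours, 8 differed in their log2 fold change (exact permutation, two-sided, adjusted over the 9 pairs). The widest gaps were around BomS5: BomT2 on its one side exceeded it by 1.87 and BomS6 on its other side by 2.02 (exact permutation adjusted p = 0.0119 for both). BomBc2 exceeded BomS2 by 1.03 and BomS4 exceeded BomS1 by 0.98 (adjusted p = 0.0119 for both). The pair that did not pass was BomT1 and BomBc1 (0.45, adjusted p = 0.111). BomS4 and BomBc2 lie on opposite strands and share 88 annotated exonic bases, 31.3% of those of BomS4. No source used here tells whether counting used strand, and reads in that stretch cannot be told apart. The short forms resemble each other in sequence, and how reads that match several of them were counted is likewise not given.

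**Figure D2:**
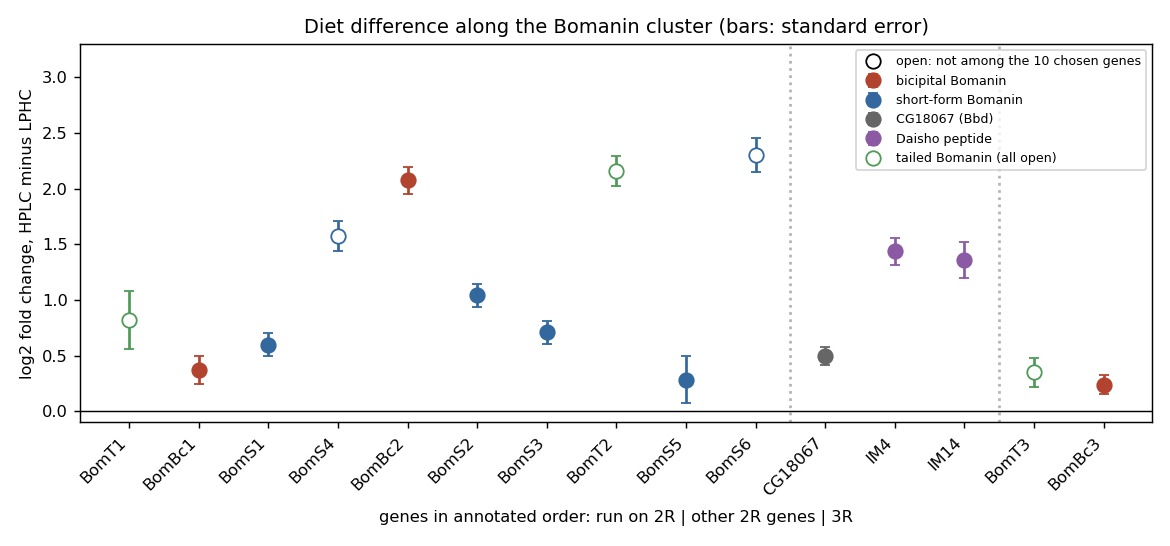
Log2 fold change, HPLC minus LPHC (vertical axis, points with SE bars), of the 15 family genes in annotated order (horizontal axis; dotted lines part the run on 2R, the other 2R genes and 3R). Filled points are the 10 chosen genes and open points the other 5; BomS5 at 0.28 sits between BomT2 at 2.16 and BomS6 at 2.30.

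Libraries of a diet differed in the members. In HPLC replicate 3 the members exceeded their HPLC mean by 0.23 to 0.75 on the log2 scale, with a median of 0.44. That library was the highest of the HPLC libraries for 9 of 10 members and for 5 of 5 of the other Bomanins, against 32.7% of all genes tested. In HPLC replicates 1, 2 and 4 none of the 10 members was above the HPLC mean. The log2 levels of BomS2 and BomS3 each had an SD of 0.27 over the HPLC libraries, but their log2 ratio had an SD of 0.04. For IM4 and IM14 the SDs were 0.32 and 0.41 on HPLC and that of their ratio was 0.14. LPHC libraries were closer, with median deviations of the members from −0.10 to 0.11. In HPLC replicate 3, the median deviation was 0.51 for 7 Imd-dependent peptides, 0.26 for 9 other Toll-dependent effectors and 0.14 for haemocyte markers. It was 0.10 for photoreceptor markers, −0.15 for neuron markers, −0.03 for fat body markers and 0.01 for all genes. For the Imd-dependent peptides the widest such deviation was in LPHC replicate 2, at 1.18.

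**Figure D3:**
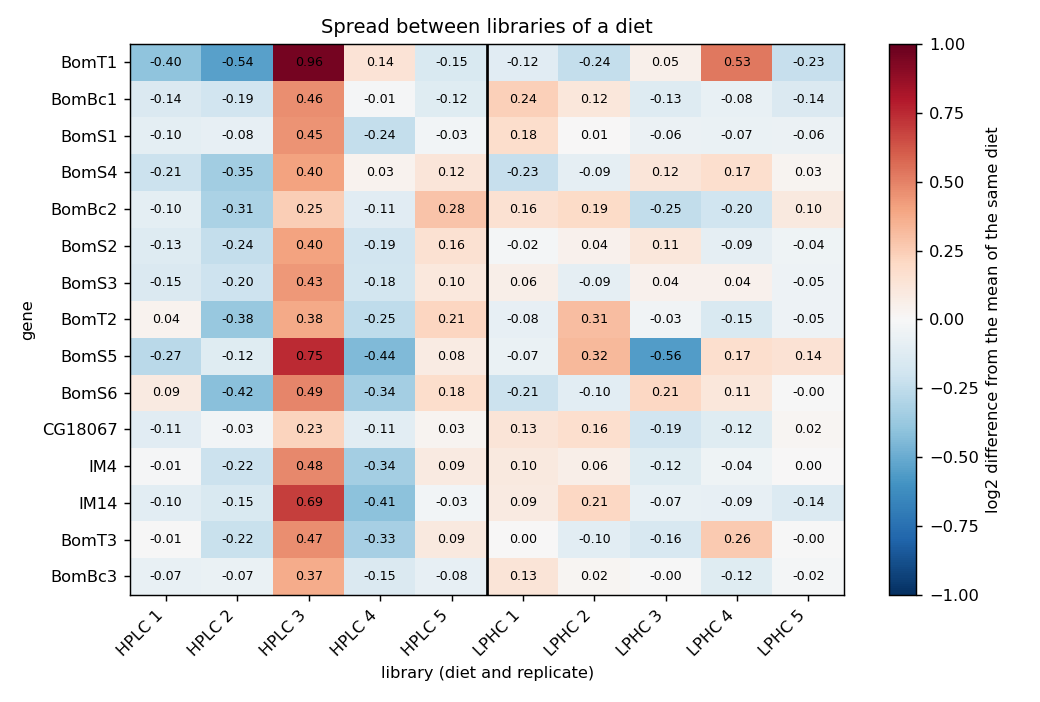
Log2 difference of each family gene (rows, in annotated order) from the mean of its own diet in each library (columns, HPLC left of the line and LPHC right). Red is above and blue below the diet mean; the column of HPLC replicate 3 is red for all 15 genes, from 0.23 to 0.96.

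The genes most like the members were found by the root mean square difference, over the 10 libraries, between a gene's centred log2 profile and the mean centred profile of the members. Of 8813 other genes (mean 50 or more), the nearest were Fdh, a formaldehyde dehydrogenase (0.0986), CG3505 (0.103), CG4598 (0.106), the electron carrier Cyt-b5 (0.107) and the odorant binding proteins Obp57a and Obp19d (0.108 each). The median over these genes was 0.504. All 6 were highest in HPLC replicate 3 among the HPLC libraries, with log2 fold changes between 0.77 and 0.90; both traits follow from choosing genes by this likeness. The members' own distances to their mean profile were 0.120 for BomS3, 0.133 for BomS2 and 0.145 for BomS1, up to 0.623 for BomBc2. Of the other Bomanins, BomT3 was at a distance of 0.291 (rank 739), BomS4 at 0.406 (rank 1937), BomT2 at 0.662 (rank 8242) and BomS6 at 0.749 (rank 8533).

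Every tested gene listed here under Toll recognition and under the protease cascade was called higher on HPLC as deposited. Under upper-quartile scaling and quantile normalization 6 of the 7 in the cascade were. Whether each listed gene acts through Toll in these samples was not tested. The listed recognition genes were called higher in 5 of 5 cases, with a median log2 fold change of 0.88. They were PGRP-SD, a peptidoglycan sensor, at 3.28 ± 0.10, the glucan sensor GNBP3 at 1.66 ± 0.07, PGRP-SA at 0.88 ± 0.14, GNBP1 at 0.70 ± 0.07 and GNBP2 at 0.49 ± 0.06 (SE, limma adjusted p at most 9.08e-05). All 7 tested genes of the cascade were higher (median 0.92), with the proteases Hayan at 1.57 ± 0.08, SPE, which cuts Spätzle, at 1.26 ± 0.07, modSP at 1.06 ± 0.06 and psh at 0.92 ± 0.06; nec, a serpin that restrains the cascade, was at 0.91 ± 0.07. The smallest rise was that of the protease grass, at 0.28 ± 0.08 (limma adjusted p = 0.00732), with overlapping diets. The ligand spz had 1520.0 to 1565 normalised reads on HPLC and 1056 to 1113 on LPHC, a rise of 0.51 ± 0.04 (limma adjusted p = 5.64e-08). Its receptor gene Tl had 2828 ± 230 on HPLC and 2789 ± 154 on LPHC (SD, n = 5 each; 0.02 ± 0.06, limma adjusted p = 0.848).

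Inside the cell, 3 of 10 Toll signalling genes were called higher and none lower, with a median of 0.03. The share called higher was near the 22.1% of all genes tested. The adaptor Myd88 was at 0.36 ± 0.06, the kinase pll at 0.34 ± 0.06 and the NF-kappaB factor Dif at 0.30 ± 0.06 (SE, limma adjusted p at most 0.00130). The factor dl (2439 to 2938 normalised reads on HPLC and 2393 to 2976 on LPHC, limma adjusted p = 0.976) and the inhibitor cact (0.06 ± 0.05, 0.385) did not pass. Under upper-quartile scaling and under quantile normalization, 3 of these 10 genes were higher and 4 lower. Over all genes, 3831 of 9893 and 3902 of 9896 were lower on these 2 scalings.

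Other effectors grouped with Toll did not all follow the Bomanins. Of 9 tested, 8 were called higher and none lower, with a median of 1.42. The defensin Def, which also answers to the Imd pathway, had 1024, 609, 1131, 512 and 553 normalised reads on HPLC and 22.9, 29.8, 16.7, 13.9 and 16.8 on LPHC, a log2 fold change of 5.16 ± 0.25 (limma adjusted p = 1.10e-09). CG15293 rose by 3.08 ± 0.09, IM33 reached 2083 to 3017 normalised reads on HPLC and 729 to 861 on LPHC, and CG33470 rose by 0.78 ± 0.09 (limma adjusted p at most 4.38e-06). Drs, which encodes the antifungal peptide Drosomycin, had 274, 486, 219, 371 and 355 on HPLC and 151, 193, 134, 154 and 139.9 on LPHC, a rise of 1.10 ± 0.18 (limma adjusted p = 2.15e-04). Its HPLC libraries ran otherwise than those of the Bomanins, with replicate 3 the lowest. Mtk, which encodes the antifungal peptide Metchnikowin, went the other way. It had 6.11, 4.22, 5.46, 2.74 and 4.21 normalised reads on HPLC and 9.04, 20.3, 6.98, 24.7 and 13.1 on LPHC, from 2 to 6 reads on HPLC and 5 to 28 on LPHC. With a mean of 9.68 it fell under the filter; in the fit without a filter its log2 fold change was −1.41 ± 0.34 (limma adjusted p = 0.00369), and DESeq2 gave −1.70 (adjusted p = 0.00145).

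On the Imd side, the other NF-kappaB pathway of fly immunity, 4 of 7 tested peptide genes were higher and none lower (median 1.67): AttB at 3.06 ± 0.17 (uncertain, as AttA is a near-identical copy), AttC with 316 to 454 normalised reads on HPLC and 24.7 to 131 on LPHC, Dro at 1.11 ± 0.28 and Listericin at 0.83 ± 0.10 (SE, limma adjusted p at most 0.00465). Of 16 genes of the pathway itself 8 were higher and 2 lower, among them PGRP-SB1 at 2.46 ± 0.13, pirk at 0.83 ± 0.09, the receptor PGRP-LC at 0.66 ± 0.06, imd at 0.61 ± 0.07 and the NF-kappaB factor Rel at 0.47 ± 0.06 (limma adjusted p at most 3.56e-06). Their number called lower was 6 under upper-quartile scaling, 5 under quantile normalization and 0 when scaled on neuron markers. Over all genes tested, 22.1% were called higher and 18.9% lower as deposited.

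Markers of the fat body, where haemolymph peptides are made and which can cling to a dissected brain, shared the members' direction between diets. All 14 tested were higher on HPLC, with a median of 2.23, against 0.65 for the members. Within a diet they went with the members in some libraries and not in others. Their median deviation was −0.23 in HPLC replicate 2 and −0.03 in HPLC replicate 3, against −0.17 and 0.44 for the members. The 16 fat body markers in the table took 0.509% to 0.619% of reads on HPLC and 0.110% to 0.138% on LPHC. Rises ran from 0.43 for Lip4 to 11.34 for Lsp2, with apolpp, the lipophorin precursor, at 2.29 ± 0.09. On LPHC the 14 tested markers ranged from Lsp2, a storage protein, at 0.70 to 6.43 normalised reads, to apolpp at 11425 to 16979 and the fatty acid synthase FASN1 at 13619 to 17394. Lsp2 and fit, with LPHC means of 3.25 and 2.60 normalised reads, passed the filter only through HPLC. Lsp1gamma and Fbp2, under the filter and at 0 in some libraries, went the other way. Their means were 2.15 and 1.19 on HPLC and 3.05 and 1.87 on LPHC. In the fit without a filter neither passed (log2 fold change −0.48 ± 0.45 and −0.40 ± 0.55, limma adjusted p = 0.440 and 0.627). Haemocyte markers took 0.223% to 0.254% of reads on HPLC and 0.0869% to 0.159% on LPHC. Of 18, 9 were called higher, against 22.1% of all genes, and none lower (median 0.78). Glt at 3.47 ± 0.11 and Nplp2 at 2.78 ± 0.10 rose most, ahead of NimB5 at 1.45 ± 0.14 and eater at 1.19 ± 0.21. Nplp2 (mean 18536 normalised reads on HPLC and 2692 on LPHC) and Glt (10029 and 911) weigh heavily in the share. Next in HPLC level were Ppn, crq, Col4a1, Hml, Pxn and vkg, none of which passed (limma adjusted p from 0.110 to 0.394). Hml had 5017 ± 697 on HPLC and 3349 ± 1208 on LPHC (SD, n = 5 each, limma adjusted p = 0.110). The number called higher was 5 without HPLC replicate 2, 3 or 5, 14 with the replicate number as a block and 16 when scaled on neuron markers. LPHC replicate 1 stood apart for this list, with a share of 0.0869% against 0.124% to 0.159% in the other LPHC libraries and 1391.5 normalised reads of Hml against 3121 to 4569. Without that library 10 haemocyte markers and 9 of the members were called higher. No haemocyte marker was at 0 in any library. Of the other markers, 7 of 14 for glia were higher, against 22.1% of all genes. Lower were 6 of 18 for neurons, 5 of 15 for photoreceptors and 8 of 14 for muscle, against 18.9% of all genes. These counts moved with the scaling. On upper quartiles 2 glia markers were higher, and 15 neuron, 9 photoreceptor and 10 muscle markers lower. On quantiles the numbers were 4, 15, 6 and 10, and on neuron markers 8, 0, 0 and 5, in the same order. The part of any of these cell types in the rise of the members was not tested.

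**Figure D4:**
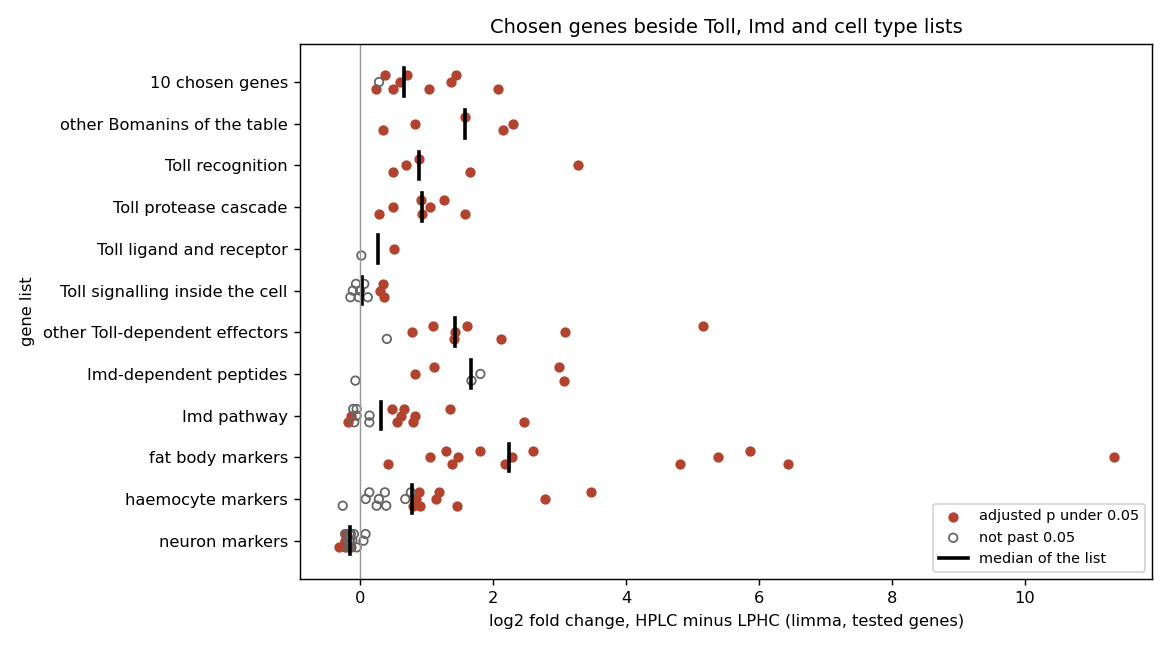
Log2 fold change, HPLC minus LPHC (horizontal axis), of the tested genes of each list (rows). Filled points passed the adjusted p threshold of 0.05 and black bars are list medians, 0.65 for the 10 members, 0.03 for Toll signalling inside the cell and 2.23 for fat body markers.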

How the data were processed

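Brains were dissected and flash frozen, with Trizol extraction and Illumina libraries, per the labels' protocols; the submitters' processing notes name HISAT2. The counting tool, strand setting, annotation and genome build: not given in the sources used here. No coordinates are therefore printed. The authors deposited 1 normalised signal per gene and library. Each deposited value was a whole multiple of 1 constant per library (100% within 1e-06), so whole reads were recovered; the constants match DESeq2 size factors (ratio 1). A count of 3 reads equals 2.09 to 4.19 normalised reads.

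limma 3.58.1 (R 4.3.3, trend, robust) was fitted to log2(value + 1), without a block, keeping 9896 genes whose mean was 10 or more and leaving out 1725. Fold changes on that scale understate low genes. On the recovered reads edgeR 4.0.16 called 4032 genes and DESeq2 1.42.0 called 4158.

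Members and lists were chosen with earlier results of these data known. Beside the members, the rule for naming genes took up to 4 called genes per list by smallest adjusted p, a fixed set of 12 (spz, Tl, Dif, dl, cact, Drs, Mtk, PGRP-SA, nec, Rel, Hml and apolpp) and the 6 nearest profiles. Those that the rule took by adjusted p from the fat body, neuron, glia, photoreceptor and muscle lists are not named in the text. BomT3, grass, Lip4, Lsp2, fit, FASN1, Lsp1gamma, Fbp2, Ppn, crq, Col4a1, Pxn, vkg, elav and repo fall outside that rule and were chosen after their values were seen. Gene names matched RefSeq as current symbols (11080) or older names (514), with 27 unmatched. Replicates differed by more than sampling noise in every pair (chi-square over its degrees of freedom 5.06 to 50.5). Pairs with HPLC replicate 3 gave 20.7 to 50.5, other HPLC pairs 5.06 to 19.8 and LPHC pairs 5.56 to 30.8. Other pseudocounts, filters and scalings, a replicate block, library weights, plain empirical Bayes and leaving out each library were tried.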

Additional observations from a re-analysis of the deposited data

Results flagged for a closer look

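In 6 of 30 sets of 5 values (15 family genes in 2 diets) 1 library lay far from the other 4. HPLC replicate 3 was that library in 4 of them, each time as the highest: 1469 for BomS1, 287 for BomBc1, 1036 for BomBc3 and 444 for IM14, as normalised read counts. The other 2 were LPHC libraries that were highest, replicate 1 for BomS1 (803) and replicate 2 for BomT2 (158). Far means a gap to the nearest library of more than 0.71 of the set's range, and these gaps were 0.720 to 0.864. About 1 set in 20 would pass this limit if values were normally distributed. The family genes of a library are not independent, and the share over all genes was not counted. HPLC replicate 3 had 26119416 recovered reads, within the range of the other libraries.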

How the results depend on the processing

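All 15 family genes stayed higher on HPLC under each alternative run that tested them, which was 22 for BomT1 and 23 for the others. BomS1, BomS2, BomS3, BomBc2, CG18067, IM4 and IM14 passed under all 23, BomS5 under none (log2 fold change 0.10 to 0.43). The members called were 9 as given and under 16 alternatives, and 7 to 9 when leaving out 1 library. BomBc1 and BomBc3 were lost without HPLC replicate 3, LPHC replicate 3, 4 or 5, and under upper-quartile and quantile scaling, BomBc3 also without LPHC replicate 2 (adjusted p up to 0.233). BomT3 was lost under 12. Pairs of members with a differing ratio were 33 as given and 31 to 33 when leaving out 1 library. Genes called lower overall were 1866 as given, 3831 with upper-quartile scaling, 3902 with quantile normalization and 226 on neuron markers; the cause was not tested. Over all genes tested, same-numbered libraries did not deviate together (correlations from −0.02 to 0.01, none with its own number best). A correlation over all genes does not tell whether some genes shared a batch by number. Haemocyte markers had their lowest median deviation in replicate 1 of both diets (−0.22 on HPLC and −0.69 on LPHC). With the replicate block 3854 genes and 9 members were called. Among the family genes depth limits BomT1 most (from 18 reads).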
